A study of Mus musculus with 19 samples.

Results

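Dnajb6 lies above the domain of Shh on mouse chromosome 5, and its contacts were read from capture Hi-C maps, which count how often pairs of 10 kb bins were joined by ligation in fixed nuclei, within 1 region pulled down with probes. Dnajb6 was taken as the 6 bins from 30060001 to 30120000 (mm9) out of 280 bins in each map, and the bin from 30080001 to 30090000 was also read alone. This viewpoint was chosen by a readout of these maps, the low contact of the bin at 30080001 with the Shh desert in embryonic stem (ES) cells compared with limb bud, so that difference is described here and used to support nothing. The desert is the 63 bins from 28890001 to 29520000, between 550 and 1220 kb from Dnajb6. In the gene order of another mouse build (GRCm38.p6), the protein-coding genes from Shh upwards are Rnf32, Lmbr1, Nom1, Mnx1, Ube3c, Dnajb6, Il6 and Tyms, and only Dnajb6 is placed at bins here.

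The 19 samples form 9 groups, each deposited as 1 merged map. Wild type limb bud (3 samples) and wild type midbrain (2 samples) came from C57BL/6 embryos, and wild type ES cells (2 samples) carry the strain label G4. The G4 embryos, with 2 samples a group, were limb buds labelled deltaCTCF i4i5, deltaCTCF i4i5ZRS, delta-CTCF i4i5ZRSreg, deltaZRSreg and Lmbr1deltaprom/deltaprom, and midbrain labelled delta-CTCF i4i5ZRS. The labels for the Lmbr1 promoter deletion name both alleles, and the other labels name none. All embryos were at day E10.5, a stage that the label of 1 ES cell sample also carries. Every mutant map thus differs from its wild type map in strain label as well as in genotype, and the parts of strain and deletion cannot be told apart from that comparison alone. Per the series design, wild type replicates are biological and mutant replicates technical. However, 2 of the 3 wild type limb titles share a library number, so those samples may not be separate biological replicates.

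Dnajb6 encodes a J-domain co-chaperone that works with heat shock proteins and holds back the aggregation of misfolded proteins, and it is expressed in many tissues. The Shh desert is a long stretch without protein-coding genes that holds enhancers of Shh, a secreted signal that patterns the limb and the nervous system. Contact domains are stretches of chromatin whose parts meet one another more often than they meet the neighbouring stretch, and the DNA-binding protein CTCF is found at many of their borders.

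The stretch before the first annotated start of Dnajb6 is shown because the maps count fragments cut by DpnII, which recognises GATC, and because CTCF sites often hold CCCTC. It is the 250 bases at chr5:29735648-29735897 on the plus strand of GRCm38.p6, from RefSeq, which lists 2 promoter windows for the gene with overlapping sequence. CG dinucleotides are in capitals.
Dnajb6: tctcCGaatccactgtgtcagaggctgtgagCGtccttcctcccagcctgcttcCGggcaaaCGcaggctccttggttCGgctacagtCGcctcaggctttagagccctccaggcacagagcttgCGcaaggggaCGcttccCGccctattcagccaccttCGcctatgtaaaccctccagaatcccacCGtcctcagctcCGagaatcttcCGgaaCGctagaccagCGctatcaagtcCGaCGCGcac
It holds 18 CG dinucleotides, against a median of 6 over 32851 RefSeq promoter windows of the same length, of which 78.3% have fewer. GC content was 60.4%, against a median of 52.4%. GATC does not occur in it, while 41.9% of all windows hold it. CCCTC, counted on both strands, matched 2 times, overlapping no GATC, and 60.5% of all windows hold a match. A match is a run of letters, and none of these counts bears on which proteins bind there.

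Contact is given as observed over expected. Each pair's balanced signal was divided by the average over all pairs that lie equally far apart in that map, so 1 is the map's own average at that distance. Intervals are 95% intervals for counting error, computed from recovered contact counts, and read pairs were not marked by molecular identifiers, so some may be copies of 1 molecule. Merging before deposit left no spread between replicates, so no test is given and an interval says nothing of variation between embryos or cultures. Recovered totals ran from 1177173 contacts (limb i4i5) to 3218492 (ES cells), and a single pair of a Dnajb6 bin and a desert bin held on average between 4.64 contacts in ES cells and 14.7 in limb i4i5ZRSreg. A contact map holds no marker gene levels, so the tissue labels could not be checked against markers.

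Dnajb6 met the desert less often than the average at those distances in all 9 maps. In wild type limb bud the value was 0.525 (0.509 to 0.541, from 5241 contacts, SD 0.094 over the 63 desert bins). Wild type midbrain gave 0.541 (0.521 to 0.560, 3915 contacts), and ES cells gave 0.245 (0.232 to 0.258, 1755 contacts). Every one of the 63 desert bins was below 1 in each of the 9 maps. Over all 23814 blocks of the same shape and separation (a run of 6 bins against 1 bin), the share below 1 was 68.1% for wild type limb, 69.2% for wild type midbrain and 61.7% for ES cells, so a value below 1 alone is common at these distances.

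A fold of 1.5 below the average was passed by 59 of the 63 desert bins in wild type limb, where 30.4% of all blocks did so. The same held for 58 desert bins in wild type midbrain (31.3% of blocks), all 63 in ES cells (40.3%), 62 in limb ZRSreg (33.1%) and 60 in the limb Lmbr1 promoter deletion (29.9%). In the maps labelled with CTCF deletions the counts were 35 for limb i4i5 (16.9%), 49 for limb i4i5ZRS (19.4%), 52 for limb i4i5ZRSreg (17.3%) and 41 for midbrain i4i5ZRS (24%). The desert was thus a region of low contact for Dnajb6, with shares well above those of all blocks in every map. ES cells are only described in this, since their low desert contact chose the viewpoint. Low desert contact was not particular to Dnajb6. The 60 other bins within 300 kb had a median desert contact of 0.652 in wild type limb and 0.682 in wild type midbrain.

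From the lowest to the highest, desert contact of Dnajb6 was 0.245 in ES cells, 0.489 in limb ZRSreg (0.472 to 0.507, 4050 contacts), 0.525 in wild type limb, 0.528 in the limb Lmbr1 promoter deletion (0.511 to 0.545, 4955 contacts) and 0.541 in wild type midbrain. Above these came limb i4i5ZRS at 0.596 (0.575 to 0.619, 3703 contacts), limb i4i5ZRSreg at 0.600 (0.582 to 0.618, 5547 contacts), midbrain i4i5ZRS at 0.615 (0.594 to 0.636, 4124 contacts) and limb i4i5 at 0.653 (0.626 to 0.680, 3149 contacts). The 4 maps labelled with CTCF deletions held the 4 highest values. Neighbours in this order among wild type limb, the Lmbr1 promoter deletion and wild type midbrain did not differ beyond counting error, and the same was true of neighbours among limb i4i5ZRS, limb i4i5ZRSreg and midbrain i4i5ZRS. The step from ES cells to limb ZRSreg was 1.00 on the log2 scale (0.90 to 1.09), and that from wild type midbrain to limb i4i5ZRS 0.14 (0.07 to 0.22).

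**Figure D1:**
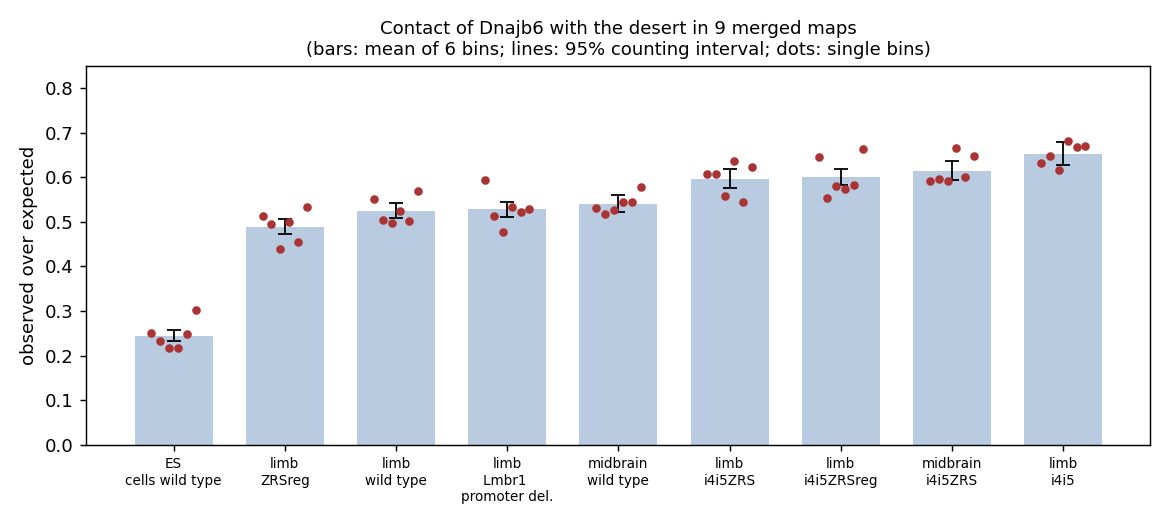
Observed over expected contact of Dnajb6 with the 63 desert bins (y axis, no unit) in the 9 merged maps (x axis, in order of level). Bars are the mean over the 6 Dnajb6 bins, lines the 95% counting interval, and dots the 6 single bins in order of position; ES cells stand at 0.245 and the other 8 maps between 0.489 and 0.653.

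The 6 Dnajb6 bins varied within a map. In wild type limb they ran from 0.498 at 30080001 to 0.569 at 30110001, in wild type midbrain from 0.518 at 30070001 to 0.578 at 30110001, and in ES cells from 0.217 at 30080001 to 0.302 at 30110001. Ranges in the 6 mutant maps were 0.615 to 0.682 (limb i4i5), 0.545 to 0.636 (limb i4i5ZRS), 0.553 to 0.664 (limb i4i5ZRSreg), 0.440 to 0.532 (limb ZRSreg), 0.478 to 0.594 (Lmbr1 promoter deletion) and 0.591 to 0.666 (midbrain i4i5ZRS). In ES cells the interval of the lowest bin (0.193 to 0.243) did not meet that of the highest (0.268 to 0.340), and the same held for limb i4i5ZRSreg, limb ZRSreg and the Lmbr1 promoter deletion. No Dnajb6 bin of ES cells reached the lowest Dnajb6 bin of any other map. At the edges of the viewpoint, the bins just inside it, at 30060001 and 30110001, were at 0.250 and 0.302 in ES cells, and those just outside, at 30050001 and 30120001, were both at 0.364. In wild type limb the inner pair was at 0.551 and 0.569 and the outer pair at 0.619 and 0.645.

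Set beside its neighbours, Dnajb6 was a local low point for balanced contact with the desert. In ES cells this is only a description, since the viewpoint was chosen for the low desert contact of 1 of its bins there. In wild type limb the 6 bins next below stood at 0.693 and the 6 bins next above at 0.645, against 0.525 for Dnajb6, a log2 ratio to both flanks of -0.35 (-0.40 to -0.30). In wild type midbrain the flanks stood at 0.664 and 0.685 (log2 ratio -0.32, -0.38 to -0.26), and in ES cells at 0.389 and 0.451 (log2 ratio -0.78, -0.87 to -0.69). Dnajb6 was lower than the mean of its flanks at 61 of 63 desert bins for wild type limb, 58 for wild type midbrain and 63 for ES cells. No such count is given for other runs of 6 bins, so how common it is cannot be read from these counts. Over the 6 mutant maps the log2 ratio ran from -0.29 (Lmbr1 promoter deletion) to -0.44 (midbrain i4i5ZRS).

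This local dip depended on balancing in limb and midbrain. On recovered counts without balancing it was -0.10 for wild type limb, -0.00091 for wild type midbrain and -0.68 in ES cells. The Dnajb6 bins carried more contacts than their neighbours, 0.98 times the count of the median bin in wild type limb against 0.87 for the bins below and 0.69 for those above. In wild type midbrain these figures were 0.94, 0.81 and 0.63, and in ES cells 0.93, 0.86 and 0.73. Their part in the dip was not tested further.

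The dip of ES cells was deeper than that of limb by 0.43 on the log2 scale (difference -0.43, -0.53 to -0.32), again as a description of what chose the viewpoint. Wild type midbrain and limb did not differ in it beyond counting error (difference 0.03, -0.05 to 0.11). Midbrain i4i5ZRS had a deeper dip than wild type midbrain (difference -0.12, -0.21 to -0.04), while limb i4i5ZRS (-0.08, -0.16 to 0.00063), limb i4i5ZRSreg (-0.04, -0.12 to 0.03) and limb i4i5 (-0.01, -0.10 to 0.08) did not differ from wild type limb beyond counting error. These differences are on balanced signal, and the dips of the mutant maps were not computed without balancing.

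Among the 89 bins above the upper border of the Shh domain (the bin at 29700001), no bin of ES cells had a lower desert contact than the single Dnajb6 bin at 30080001, at 0.217. In the other 8 maps between 16 and 22 of the 89 bins were lower, and the lowest in wild type limb was 0.338 at 30480001, near the far end of the map. Within 300 kb of the viewpoint, 4 of 60 other bins were below the single bin for wild type limb (lowest 0.456, at 29800001), 0 for wild type midbrain and 0 for ES cells. The median of these 60 bins was 0.652 for limb, 0.682 for midbrain and 0.491 for ES cells. The viewpoint was chosen for the low contact of the bin at 30080001 in ES cells, so nothing is read from its rank there.

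**Figure D2:**
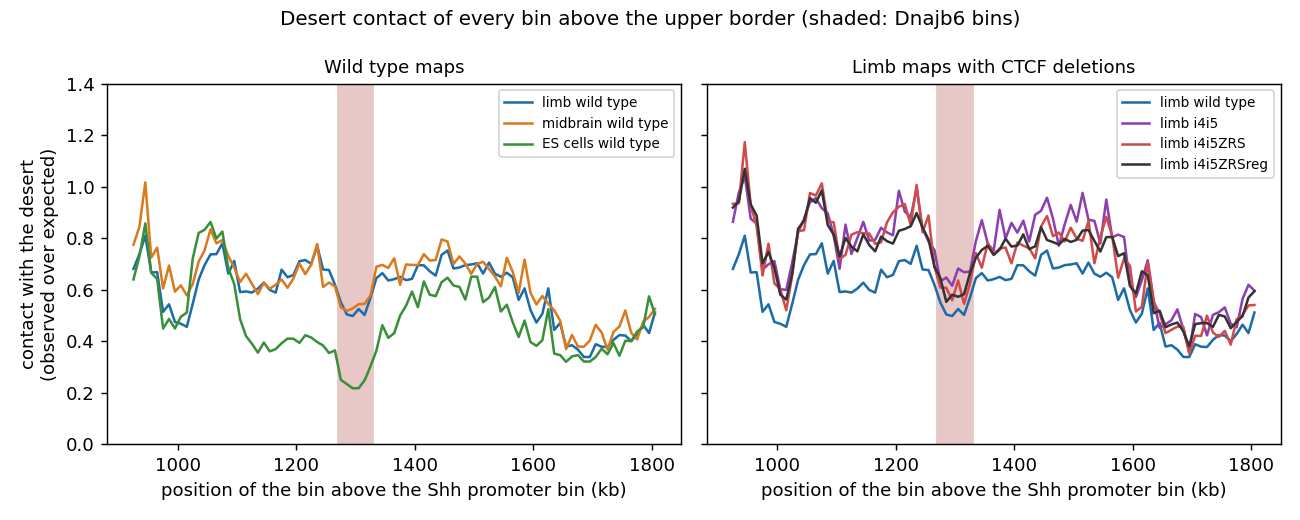
Contact of each 10 kb bin above the upper border with the 63 desert bins (y axis, observed over expected) by the bin's position above the Shh promoter bin (x axis, kb); lines are maps and the shaded band marks Dnajb6. On the left, wild type maps dip at Dnajb6, to 0.217 in ES cells; on the right, the limb maps with CTCF deletions run above wild type limb on both sides of Dnajb6 as well as at it.

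Between ES cells and wild type limb, desert contact of Dnajb6 differed by a log2 ratio of -1.10 (-1.19 to -1.01), so contact dropped by 53.4%. At least 1.5-fold lower values were seen at 57 of the 63 desert bins, where 16.6% of all blocks passed that fold downwards, and at least 1.5-fold higher values at 1, where 4.08% passed it upwards. The median log2 ratio was -1.19 over the desert bins and -0.05 over all blocks. These values come from the contrast that chose the viewpoint, so nothing is read from them. The 1 desert bin that was higher, at 28910001, is thinly covered, with 1 contact with Dnajb6 in wild type limb and 4 in ES cells. Without the desert bins of low coverage the log2 ratio was -1.15, and with limb ZRSreg and the Lmbr1 promoter deletion, which share the strain label of the ES cells, as a joint reference it was -1.05.

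At the median, other bins above the border shared the ES cell difference in a smaller measure, while some were higher in ES cells than in limb. The 6 Dnajb6 bins had log2 ratios from -1.27 to -0.91. The 83 other bins above the border had a median of -0.21, and none lay below the lowest Dnajb6 bin. Only 2 of them lay below the highest Dnajb6 bin, and the lowest of all was -0.96 at 30020001, inside the stretch next below. The highest of the other bins was 0.41, at 30580001. This contrast chose the viewpoint, so nothing is read from the order of the bins. Compared with pairs that span the upper border alone, in place of all pairs at the same separation, the ES cell ratio was -0.83.

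By part of the desert, and again as a description of the contrast that chose the viewpoint, values were as follows. In the lower 21 bins (28890001 to 29100000) Dnajb6 contact was 0.510 in wild type limb and 0.258 in ES cells, a log2 ratio of -0.98 (-1.15 to -0.82). In the middle 21 bins (29100001 to 29310000) it was 0.526 and 0.201, a log2 ratio of -1.39 (-1.53 to -1.24), with every one of them at least 1.5-fold lower (16.6% of all blocks). In the upper 21 bins (29310001 to 29520000) it was 0.539 and 0.276, a log2 ratio of -0.97 (-1.12 to -0.81). At the single bin 30080001 the order differed, with 0.194 in the lower and 0.183 in the middle part of the desert in ES cells and log2 ratios to limb of -1.42 and -1.38, against -0.86 in the upper part. By the 3-bin running mean, the largest fall was at 29110001, from 0.605 (263 contacts) to 0.153 (50 contacts), and the next at 29040001, from 0.511 to 0.179.

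Wild type midbrain and limb did not differ in mean desert contact beyond counting error, while parts of the desert did. The log2 ratio of midbrain over limb was 0.04 (-0.03 to 0.11) over the whole desert, with 1 of 63 bins at least 1.5-fold higher (1.98% of all blocks) and 2 at least 1.5-fold lower (2.98%). In the lower part midbrain was higher, at 0.588 against 0.510 (log2 ratio 0.21, 0.09 to 0.33). In the middle part the log2 ratio was 0.10 (0.0018 to 0.21). In the upper part it was lower, at 0.468 against 0.539 (log2 ratio -0.20, -0.33 to -0.07). The single bin at 30080001 gave 0.27 (0.03 to 0.52) in the lower part, -0.09 (-0.30 to 0.13) in the middle and 0.02 (-0.23 to 0.28) in the upper, so the lower value of the upper part was not seen there. From the end of the desert to the upper border it was also lower, at 0.617 against 0.709 (log2 ratio -0.20, -0.29 to -0.11). The largest single fall, at 29390001, went from 0.569 to 0.345 on only 108 and 46 contacts, and the largest rise, at 28900001, adjoins the thinly covered bin at 28910001.

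The maps labelled with CTCF deletions had higher desert contact of Dnajb6 than their wild type maps. The log2 ratio was 0.31 (0.24 to 0.39) for limb i4i5, 0.18 (0.12 to 0.25) for limb i4i5ZRS, 0.19 (0.13 to 0.25) for limb i4i5ZRSreg and 0.19 (0.11 to 0.26) for midbrain i4i5ZRS. Values were higher at 53, 50, 50 and 45 of the 63 desert bins in that order, where 59.0%, 58.1%, 58.2% and 51.9% of all blocks were higher. Median log2 ratios over the desert bins were 0.27, 0.17, 0.10 and 0.14, and over all blocks 0.08, 0.06, 0.07 and 0.02. Few bins passed the 1.5-fold mark. In limb i4i5 it was 9 bins higher (8.25% of all blocks) and 0 lower (4.54%), and in limb i4i5ZRS 3 higher (5.42%) and 1 lower (3.67%). In limb i4i5ZRSreg it was 5 higher (5.53%) and 0 lower (2.62%), and in midbrain i4i5ZRS 8 higher (7.04%) and 1 lower (4.14%). The shares of desert bins past the mark upwards, 9, 3, 5 and 8 of 63, were near or moderately above those of all blocks.

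The rise of Dnajb6 in these maps was not larger than that of the other bins above the border. In limb i4i5 the 6 Dnajb6 bins had log2 ratios from 0.20 to 0.41, and the 83 other bins had a median of 0.34. The medians of the other bins were 0.27 in limb i4i5ZRS, where Dnajb6 bins ran from 0.12 to 0.28, and 0.27 in limb i4i5ZRSreg, where they ran from 0.12 to 0.23. In midbrain i4i5ZRS the other bins had a median of 0.31 and the Dnajb6 bins ran from 0.14 to 0.29. Measured against pairs that span the upper border alone, the rise was gone or turned over, with log2 ratios of 0.0038 for limb i4i5, -0.077 for limb i4i5ZRS, -0.086 for limb i4i5ZRSreg and -0.10 for midbrain i4i5ZRS. Against the mean of the 2 limb maps that carry the G4 label but no CTCF deletion, the log2 ratios over all pairs were 0.36 for limb i4i5, 0.23 for limb i4i5ZRS and 0.24 for limb i4i5ZRSreg, so the direction was the same within the strain label.

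Limb i4i5ZRS and limb i4i5ZRSreg both had lower desert contact of Dnajb6 than limb i4i5, by log2 ratios of -0.13 (-0.21 to -0.05) and -0.12 (-0.20 to -0.05). In the middle part limb i4i5ZRS was at 0.572 and limb i4i5 at 0.655 (log2 ratio -0.20, -0.32 to -0.08). Limb i4i5ZRSreg was higher than limb ZRSreg, by 0.29 (0.23 to 0.36) over the whole desert and by 0.41 (0.31 to 0.52) in its middle part. These comparisons are between G4 maps and use all pairs at a separation. Against pairs that span the upper border, limb i4i5ZRSreg stood at -0.086 to wild type limb and limb ZRSreg at -0.041. On that measure limb i4i5ZRSreg was not higher than limb ZRSreg. Limb i4i5, at 0.0038, stayed above limb i4i5ZRS (-0.077) and limb i4i5ZRSreg. The log2 ratio of i4i5ZRS to wild type differed between midbrain and limb by 0.0010 (-0.10 to 0.10), so no difference between the tissues was detectable at this depth.

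The deletion labelled ZRSreg and that of the Lmbr1 promoter came with small differences. Limb ZRSreg was below wild type limb over the desert (log2 ratio -0.10, -0.17 to -0.03), but not beyond counting error against pairs that span the upper border (-0.041, -0.11 to 0.03) or with counts thinned to the shallowest map (-0.080, -0.18 to 0.02). It had 3 of 63 bins at least 1.5-fold lower (1.86% of all blocks) and 2 at least 1.5-fold higher (1.3%). The Lmbr1 promoter deletion did not differ beyond counting error (log2 ratio 0.0083, -0.05 to 0.07), with 2 bins higher past the mark (1.52%) and 1 lower (1.15%). Its log2 ratios in parts of the desert were 0.13 (0.02 to 0.24) in the lower and -0.13 (-0.25 to -0.01) in the upper. The lower part includes the bin at 28910001, which had 1 contact with Dnajb6 in wild type limb and 10 in each of these maps.

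**Figure D3:**
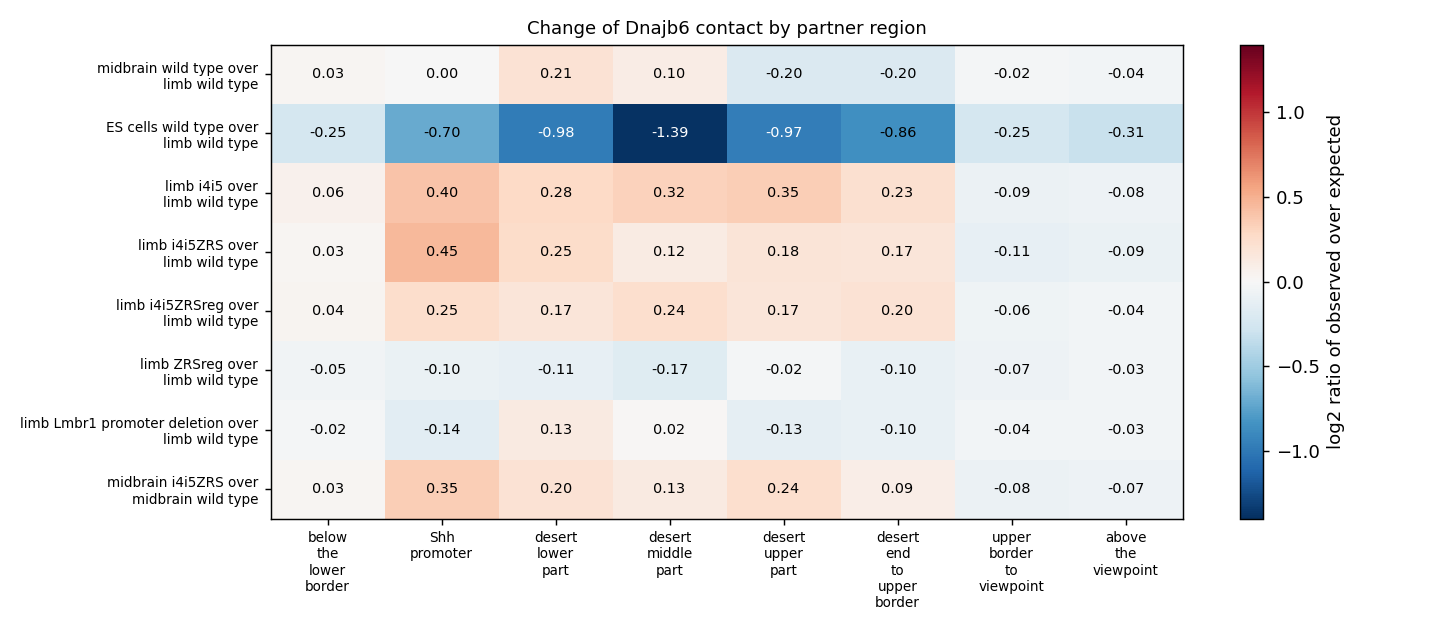
Log2 ratio of Dnajb6 contact (colour and number in each cell) between 2 maps (rows) for 8 partner regions in order along the chromosome (columns). ES cells over wild type limb reach -1.39 in the middle part of the desert and stay at -0.25 and -0.31 outside the Shh domain above the upper border; maps with CTCF deletions are higher at the Shh promoter and across the desert and slightly lower above the upper border.

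With the 2 bins of the Shh promoter (28780001 to 28800000), Dnajb6 contact was close to average in wild type limb, at 0.969 (0.853 to 1.10, 281 contacts), and in wild type midbrain, at 0.967 (0.823 to 1.13, 177 contacts). ES cells stood at 0.595 (0.466 to 0.749) from only 81 contacts, a log2 ratio to limb of -0.70 (-1.08 to -0.33). Over the 6 Dnajb6 bins, the promoter was thus met more often, for its distance, than the intervening desert in wild type limb and midbrain. ES cells had the same order, but their low desert contact chose the viewpoint, so nothing is read from it. The order was not particular to Dnajb6. In wild type limb the 6 bins next below stood at 1.53 against 0.693, and the 6 bins next above at 0.827 against 0.645. The single bin at 30080001 kept this order in wild type limb (0.998 against 0.498) and midbrain (0.959 against 0.527). In ES cells it could not decide, with 0.289 (0.143 to 0.520, 11 contacts) at the promoter and 0.217 (0.193 to 0.243) over the desert. The promoter log2 ratio of ES cells to limb at that bin was -1.79 (-2.71 to -0.86). This was lower than the -0.70 of the 6 bins, with overlapping intervals. Promoter contact of the 6 bins was higher in limb i4i5, at 1.27 (1.09 to 1.48, 190 contacts), and limb i4i5ZRS, at 1.33 (1.15 to 1.53, 215 contacts). The same held for limb i4i5ZRSreg, at 1.15 (1.02 to 1.29, 313 contacts), and midbrain i4i5ZRS, at 1.23 (1.05 to 1.43, 195 contacts). Their log2 ratios to wild type were 0.40, 0.45, 0.25 and 0.35, each with an interval that stayed above 0. The rise was not particular to Dnajb6. In the 6 bins next below, promoter contact was 1.53 in wild type limb and 1.93, 2.31 and 1.87 in these limb maps. In midbrain those bins stood at 1.38 in wild type and 2.08 in i4i5ZRS. Promoter contact was not recomputed against pairs that span the upper border. Limb ZRSreg, at 0.907, and the Lmbr1 promoter deletion, at 0.876, did not differ from wild type limb beyond counting error.

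The window from 830 to 870 kb above the promoter bin, where the limb enhancer of Shh (ZRS) is placed from general knowledge of its distance, had a Dnajb6 contact of 0.717 (0.665 to 0.771) for wild type limb, 0.632 (0.575 to 0.693) for wild type midbrain and 0.376 (0.335 to 0.420) for ES cells. Limb i4i5 had 0.869, limb i4i5ZRS 0.875 and limb i4i5ZRSreg 0.796. Limb ZRSreg, at 0.721, and the Lmbr1 promoter deletion, at 0.708, were close to wild type limb, with log2 ratios of 0.0093 (-0.15 to 0.17) and -0.02 (-0.17 to 0.14).

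Outside the Shh domain, averages over long regions are given first, and shorter stretches within them differed more between the maps. From the upper border to the viewpoint contact was 0.982 for wild type limb, 0.966 for wild type midbrain and 0.828 for ES cells, and in the 6 mutant maps it lay between 0.907 and 0.958. Above the viewpoint (30140001 to 30600000) it was 1.34, 1.31 and 1.08 in the 3 wild type maps and between 1.24 and 1.31 in the mutant maps. Below the lower border of the Shh domain (27800001 to 28760000) it was 0.961, 0.980 and 0.810 in the wild type maps and between 0.926 and 1.00 in the mutant maps. ES cells were thus below wild type limb in every partner region, with log2 ratios of -0.25 from the upper border to the viewpoint, -0.31 above it and -0.25 below the lower border. Within the Shh domain they were -0.70 at the promoter, -1.10 over the desert, -0.93 in the ZRS window and -0.86 from the end of the desert to the upper border.

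**Figure D4:**
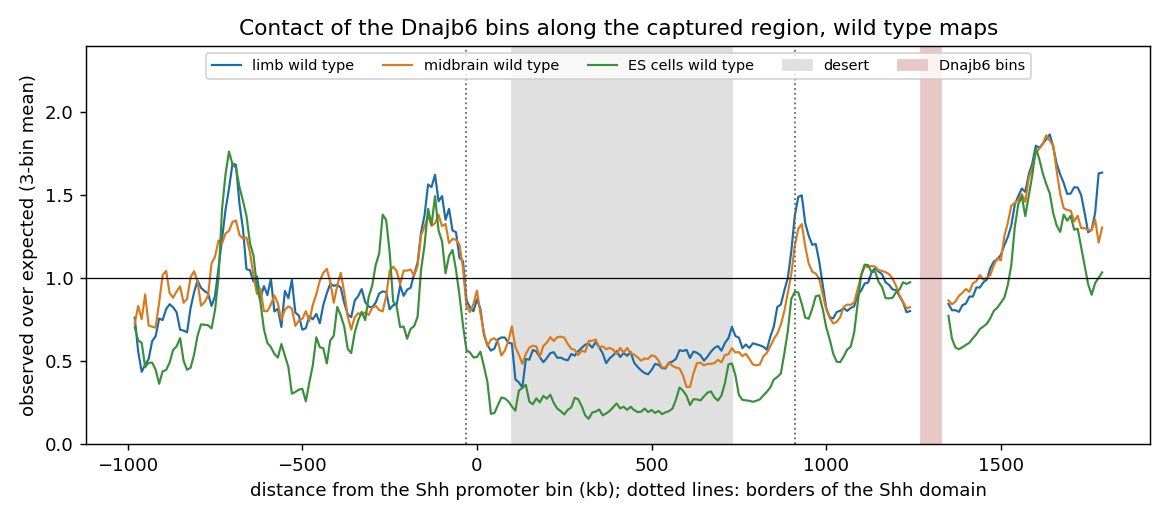
Contact of the 6 Dnajb6 bins with every partner bin (y axis, observed over expected, running mean over 3 bins) by distance from the Shh promoter bin (x axis, kb) in the 3 wild type maps. The desert (grey) is the lowest stretch in all 3, with 0.525 for limb, 0.541 for midbrain and 0.245 for ES cells, and values rise above 1 on both sides of the Shh domain.

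Above average contact was described for the 4 stretches of at least 5 bins in which the running mean of wild type limb reached 1.2, chosen after this profile was seen. The farthest, from 28060001 to 28130000, lies beyond the Shh domain and stood at 1.49 (1.36 to 1.62) for wild type limb, 1.28 (1.16 to 1.42) for wild type midbrain and 1.61 (1.45 to 1.78) for ES cells. The stretch from 28630001 to 28740000, just below the lower border, stood at 1.43, 1.30 and 1.23 in the same order. Both of these stretches on the far side of the domain were thus above average in ES cells. The whole region below the lower border was not, at 0.810 in ES cells with 24 of 96 bins above 1. The low desert contact of ES cells chose the viewpoint, so nothing is read from setting these stretches beside the desert. In the mutant maps values ran from 1.29 (limb i4i5) to 1.44 (limb i4i5ZRSreg) in the far stretch and from 1.19 (Lmbr1 promoter deletion) to 1.63 (limb i4i5ZRS) in the near one.

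The stretch at the upper border, from 29700001 to 29770000, stood at 1.35 (1.30 to 1.41) for wild type limb, 1.17 (1.11 to 1.23) for wild type midbrain and 0.857 (0.814 to 0.902) for ES cells, which alone were below 1. Maps with CTCF deletions stood at 1.17 (limb i4i5), 1.17 (limb i4i5ZRS), 1.24 (limb i4i5ZRSreg) and 1.09 (midbrain i4i5ZRS), limb ZRSreg at 1.28 and the Lmbr1 promoter deletion at 1.22. Because this stretch was picked where wild type limb itself was high, nothing is read from wild type limb standing highest there, and the intervals of limb ZRSreg (1.22 to 1.33) and wild type limb overlap. The last stretch, from 30310001 to 30590000 above Dnajb6, ran from 1.32 in ES cells to 1.57 in wild type limb, and the highest single position in wild type limb was there, at 30430001 (1.87).

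As a share of all Dnajb6 contacts at 20 kb or more, the desert took 8.46% (8.24 to 8.68, Wilson) for wild type limb, 9.15% (8.88 to 9.43) for wild type midbrain and 3.66% (3.50 to 3.83) for ES cells. The desert share of limb i4i5 was 11.4%, of limb i4i5ZRS 9.64%, of limb i4i5ZRSreg 9.91%, of limb ZRSreg 8.14%, of the Lmbr1 promoter deletion 8.58% and of midbrain i4i5ZRS 10.2%. These shares are counts without balancing or distance correction. They put the same map lowest and the same map highest as the balanced values did.

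Dnajb6 sits at no strong border of its own. Insulation is the log2 of the average signal between the 10 bins before and the 10 bins after a position, set against the same average over the whole map. It averaged between -0.19 and -0.28 over the 6 Dnajb6 bins in the 9 maps. At the upper border it was between -0.52 (limb i4i5) and -0.82 (limb ZRSreg). At the lower border it was between -0.95 (limb i4i5) and -1.55 (ES cells). The lowest of the Dnajb6 bins was 30090001 in every map except ES cells, where it was 30110001 at -0.43.

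The bins outside the desert whose desert contact was, over the 9 maps, most like that of Dnajb6 were 28690001 (Pearson r = 0.96 on log2 values), 29960001 (0.95) and 29940001 (0.95), against a median r of -0.03 over 193 candidate bins at least 100 kb from the viewpoint. Without ES cells, r was 0.54 for 28690001, 0.95 for 29960001 and 0.94 for 29940001. The first thus rests on the ES cell map, and the other two, between the upper border and Dnajb6, do not. All the points share their map's expected values and desert partners, so this is a description of likeness.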

How the data were processed

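Contact maps of 19 capture Hi-C samples in 9 groups were used. Per the labels' protocols, tissue was dissociated, fixed, cut with DpnII, ligated and enriched with SureSelect probes. Reads were processed on mm9 with Juicer, SAMtools, Bowtie2 2.3.4.1 and cutadapt 1.15, per the submitters' processing notes, whose settings were not at hand. The authors merged each group's samples, filtered at MAPQ 30 and balanced the maps (KR), per the file names, and the deposited unit is signal for every pair of 10 kb bins. Balancing gives every bin of a map the same total. Pairs not listed were taken as 0. A library suffix in an ES cell title is not that of the merged map, and a library number occurs in 2 titles of wild type limb.

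Balanced values are whole counts times a factor for each bin, which gave back contact counts (100% of values within 0.01 of a whole number). Intervals (95%) are Poisson intervals scaled to the balanced values, or Wilson intervals for shares. The expected value is the mean over all pairs at a separation, and 2 bins on each side of Dnajb6 were left out of its flanking regions. Borders are the lowest insulation, averaged over the maps, near the Shh promoter and near the far end of the domain. A difference of 1.5-fold counts as called, and its background is all runs of 6 bins against single bins at 550 to 1220 kb. Bins named are the 2 highest and 2 lowest of the desert by a 3-bin mean in each map, the 2 largest rises and falls in each of 8 comparisons, the 3 highest outside the desert in wild type maps and the 3 most alike in desert contact, of which a selection is printed; stretches above average were named after their values were seen. The gene, its desert partners and these lists were chosen with earlier results of these data known. The calculation was tested on simulated maps. Alternatives were another expected value, no expected value, no balancing, thinned counts, a single viewpoint bin and a shorter desert; leaving out bins of low coverage and the G4 limb reference were added after seeing the data. Calculations used Python 3.11.15, numpy 2.4.6 and scipy 1.17.1.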

Additional observations from a re-analysis of the deposited data

How the results depend on the processing

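Of 92 values recomputed under alternatives for 11 results, 69 stayed within the counting interval of the reported value. In 11 the sign was opposite: 3 turned a difference beyond counting error, and 8 belong to midbrain over limb and the Lmbr1 promoter deletion, whose reported intervals hold 0. The interval came to hold 0 in 5 others, among them limb ZRSreg with the expected value from border-spanning pairs (-0.041) and with thinned counts (-0.080), and came to exclude 0 in 3. With an expected value from pairs that span the upper border, the log2 ratio over the desert was -0.83 for ES cells and 0.0038 for limb i4i5, and it turned to -0.077 for limb i4i5ZRS, -0.086 for limb i4i5ZRSreg and -0.10 for midbrain i4i5ZRS. With the median as the expected value it was 0.19, 0.091 and 0.10 for limb i4i5, i4i5ZRS and i4i5ZRSreg. With signal scaled to the map total and no expected value it was -0.087 for wild type midbrain, -1.61 for ES cells, 0.52 for limb i4i5, 0.028 for limb i4i5ZRS, 0.25 for limb i4i5ZRSreg and -0.14 for the Lmbr1 promoter deletion. The single bin at 30080001 gave -1.20 for ES cells, -0.18 for limb ZRSreg, -0.059 for the Lmbr1 promoter deletion, and ratios to the flanks of -0.43 in wild type limb and -0.95 in ES cells. A desert shortened by 100 kb at each end gave -1.23 for ES cells. Counts without balancing gave ratios to the flanks of -0.10, -0.00091 and -0.68 in wild type limb, midbrain and ES cells. Beyond the construction of each alternative, the cause was not tested. Thinned counts, the G4 limb reference and the removal of low-coverage bins moved no value beyond that interval. No paired analysis was possible because the libraries of a group were merged before deposit, and no replicate could be left out for the same reason. Depth limits regions of few contacts, such as the Shh promoter with 81 in ES cells.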
